A study of Mus musculus with 12 samples.

Results

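The 10 genes described here are Pax7, Myf5, Myod1, Myog, Myf6, Mymk, Myh3, Myh8, Ncam1 and Cdkn1a, which mark successive steps from the muscle stem cell to the muscle fiber. They were taken by symbol from the 17752 genes with a deposited expression value, and not by a rule on measured values. Earlier results of these data were known when they were chosen. RNA was sequenced from the extensor digitorum longus (EDL), which is a fast muscle of the shin, of male mice. There were 4 groups of 3 libraries each, labelled control or Nrip1 knockout and sedentary or trained. The genotype labels are written here as labelled WT and labelled strNrip1-/-, after the names used in the study. In the study, strNrip1-/- mice carried floxed Nrip1 alleles (C57BL/6J) and a Cre recombinase driven by the muscle creatine kinase (MCK) promoter, which acts in heart and skeletal muscle, and the WT mice were littermates without Cre. Training was voluntary wheel running for 8 weeks, begun at 8 weeks of age. The MCK promoter is active in differentiated fibers rather than in muscle stem cells. Nrip1 encodes the nuclear receptor corepressor RIP140.

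Nrip1 itself was higher in the libraries labelled strNrip1-/-. Its level was 2.53 to 4.76 FPKM (fragments per kilobase of transcript, scaled by depth) in the 6 libraries labelled WT and 14.9 to 20.7 FPKM in the 6 libraries labelled strNrip1-/-, so every library labelled strNrip1-/- was above every library labelled WT. By the study's methods the floxed part is the last exon, which holds the coding sequence, and a value for the whole gene does not separate it from the exons that stay. The value alone therefore does not show whether labels were exchanged. Every library is named by its label, and each direction given for genotype is a direction between labels. The scale of FPKM came to between 19.96 M and 29.08 M fragments per library, read from the steps between low FPKM values. It is the depth only if FPKM was scaled by each library's own total, which the sources used here do not state. Markers of muscle fibers, such as the skeletal actin Acta1, summed to 87141 to 140066 FPKM over the 12 libraries. EDL tissue holds fibers, muscle stem cells and other cells together, so fewer cells of a type and less RNA per cell cannot be told apart in any value here.

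Adult muscle is repaired by satellite cells, which lie under the basal lamina of the fiber and express Pax7. On activation they express the basic helix-loop-helix factors Myf5 and Myod1, which commit them to the muscle lineage. Myog then drives differentiation while Cdkn1a, an inhibitor of cyclin-dependent kinases, helps them to leave the cell cycle. Mymk encodes myomaker, a membrane protein required for the fusion of myoblasts, and Myh3 and Myh8 encode the embryonic and perinatal myosin heavy chains of newly formed fibers. Ncam1 encodes a neural cell adhesion molecule found on satellite cells and Schwann cells, at the synapse and on denervated fibers. Myf6, also called MRF4, is the myogenic factor that remains abundant in mature fibers.

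Myogenic factors bind the E-box, CANNTG, as dimers with E proteins. The 250 bases before the start of transcription were searched for it on both strands, which for this palindromic pattern give the same matches. RefSeq windows (GRCm38.p6) were matched for 6 of the 10 genes, in 7 windows, because Cdkn1a has more than 1 start. An E-box was present in 4 of the 7 windows, against 66.2% of the 32851 windows of this length in the table. Those of Myog, Myh3 and Myf5 are shown because they are a differentiation factor, a developmental myosin and a determination factor with differing numbers of matches. Each is written 5′ to 3′ on the strand of the gene and ends at the last base before the start, with E-boxes in capitals.
Myog, chr1:134289754-134290003, plus strand: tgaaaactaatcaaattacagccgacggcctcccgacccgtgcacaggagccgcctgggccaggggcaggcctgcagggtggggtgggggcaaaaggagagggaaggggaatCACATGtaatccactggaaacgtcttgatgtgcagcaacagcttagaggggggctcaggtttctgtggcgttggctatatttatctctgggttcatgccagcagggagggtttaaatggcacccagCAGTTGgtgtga
Myh3, chr11:67078050-67078299, plus strand: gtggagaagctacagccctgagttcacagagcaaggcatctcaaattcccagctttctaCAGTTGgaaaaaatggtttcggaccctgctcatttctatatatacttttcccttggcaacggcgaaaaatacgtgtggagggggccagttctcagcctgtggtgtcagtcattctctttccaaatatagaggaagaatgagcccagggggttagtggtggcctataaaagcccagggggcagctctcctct
Myf5, chr10:107486135-107486384, minus strand: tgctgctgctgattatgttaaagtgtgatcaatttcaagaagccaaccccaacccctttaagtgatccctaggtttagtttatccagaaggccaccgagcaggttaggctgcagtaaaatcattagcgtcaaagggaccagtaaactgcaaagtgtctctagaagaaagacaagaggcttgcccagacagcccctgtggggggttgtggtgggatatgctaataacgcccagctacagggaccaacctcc
Myog had E-boxes at 138 to 133 and at 12 to 7 bases before the start, Myh3 had 1 at 191 to 186 bases, and Myf5 had none in this window. A match is a run of letters and not a measured binding site. No window was given for Myf6, Myod1, Mymk and Ncam1.

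Over all 12 libraries Myf6 was the most abundant of the 10 genes, with a mean level of 64.3 FPKM, at the 94.1 percentile of all genes listed. It was followed by Myod1 (13.0 FPKM), Cdkn1a (10.02 FPKM), Ncam1 (8.42 FPKM), Myog (1.87 FPKM), Myh3 (1.19 FPKM), Myh8 (0.958 FPKM), Myf5 (0.725 FPKM), Pax7 (0.409 FPKM) and Mymk (0.128 FPKM). Only the ranges of Myf6 and Myod1 stood clear of each other among neighbours in this order, while each of the other neighbouring pairs overlapped. The mature-fiber factor thus stood at the top and the genes of stem cells and fusion at the bottom. FPKM is a level per length of transcript, so these are comparisons between genes on that scale.

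**Figure D1:**
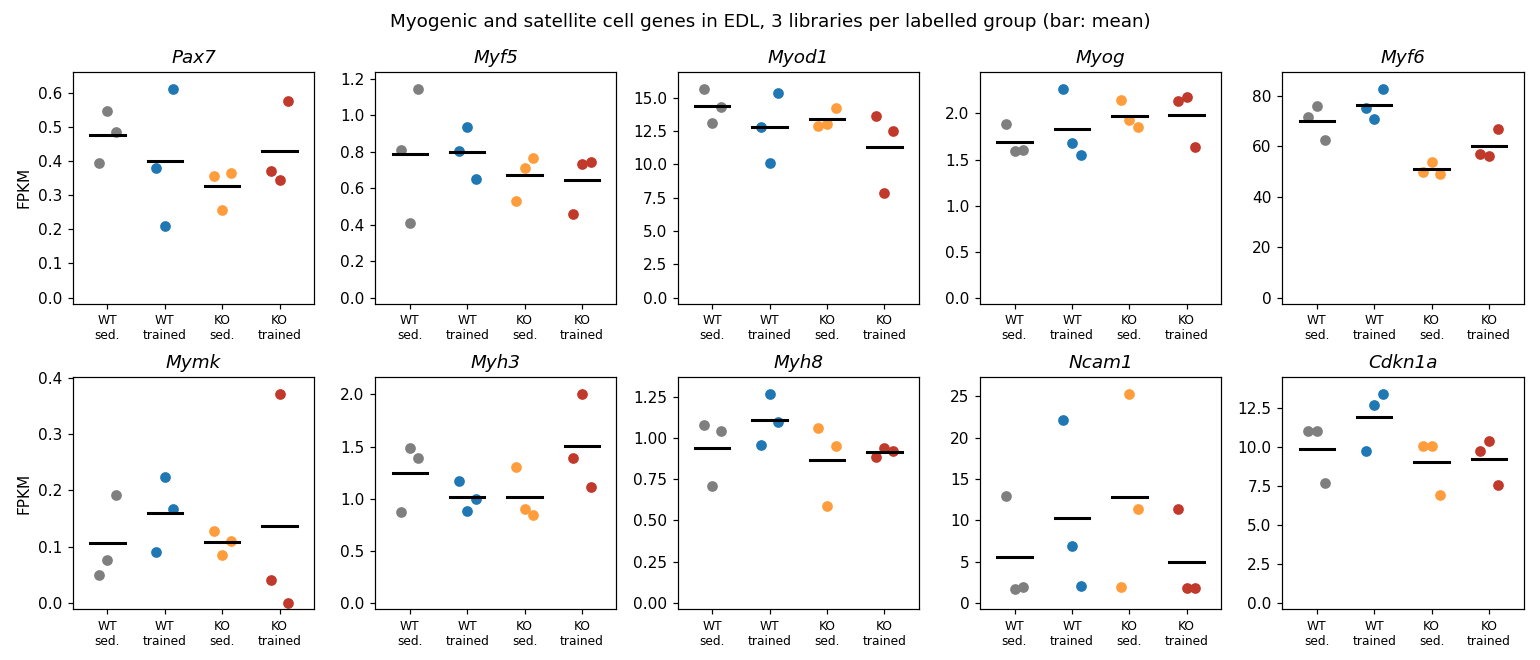
FPKM of each of the 10 genes (linear y axes, each from about 0) in the 4 labelled groups on the x axis, where KO is labelled strNrip1-/- and sed. is sedentary. Each point is 1 library, with 3 per group, and the bar is their mean. The Myf6 points labelled strNrip1-/- lie below those labelled WT in both training states, and Ncam1 is spread from 1.61 to 25.3 FPKM with high and low libraries in every group.

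Genotype and training were each tested with limma on log2(FPKM + 0.5) over the 12744 genes whose mean reached 0.5 FPKM, and a gene was called at a Benjamini-Hochberg adjusted p under 0.05 and a fold change above 1.2. Of the 10 genes 8 passed the filter, and Pax7 and Mymk were below it. Between labelled strNrip1-/- and labelled WT, 1 of the 8 was called in sedentary muscle, which was Myf6, against 3.51% of all genes tested. In trained muscle 0 of the 8 were called by limma, against 5.98% of all genes, and 1 of the 8 had an unadjusted p under 0.05, against 21.1% of all genes. With so few genes, neither count can be set apart from its background share. Over all genes the calls divided into 245 higher and 202 lower in sedentary and 409 higher and 353 lower in trained muscle, but into 397 and 83 and into 466 and 149 under a rescaling that set the summed FPKM of nuclear genes equal. Training gave 0 calls among the members within labelled WT and 0 within labelled strNrip1-/- by limma, where 0% and 0% of all genes were called. At an unadjusted p under 0.05 it gave 0 and 1 of the 8 members, and 1061 and 1544 of all genes. The genotype by training interaction, called on adjusted p alone, gave 0 members and 0% of all genes, with 0 members and 989 of all genes at an unadjusted p under 0.05.

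Myf6 (ENSMUSG00000035923) is encoded at chr10:107492853-107494737 (GRCm38, minus strand), 6718 bases from Myf5. In sedentary muscle its level was 71.7, 76.0 and 62.6 FPKM in the libraries labelled WT and 49.8, 53.8 and 49.0 FPKM in those labelled strNrip1-/-. In trained muscle it was 75.3, 70.8 and 82.8 FPKM in libraries labelled WT and 56.7, 56.1 and 66.9 FPKM in those labelled strNrip1-/-. The groups did not overlap by genotype in either training state, and all libraries labelled strNrip1-/- were the lower ones. The share of all genes without overlap is not given here. With 3 libraries per group, this and each later statement on overlap is therefore a description and not a test. Group means were 70.1 ± 6.84 and 50.8 ± 2.57 FPKM in sedentary and 76.3 ± 6.08 and 59.9 ± 6.07 FPKM in trained muscle (SD, n = 3 libraries). These values rested on 1045 to 2223 fragments per library.

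In sedentary muscle Myf6 fell in labelled strNrip1-/-, with a log2 fold change of -0.46 (SE 0.0962, 95% confidence interval -0.67 to -0.24, limma adjusted p = 0.0257). In trained muscle the log2 difference was -0.35 (95% confidence interval -0.56 to -0.14) and did not pass the test, with a limma adjusted p of 0.0577. The interaction was 0.11 on the log2 scale (limma adjusted p = 0.884), so the genotype differences in the 2 training states were not shown to differ. The sedentary call was lost in 6 of the 19 alternatives run. It was lost when libraries were rescaled to the same nuclear sum (log2 -0.38, adjusted p = 0.0970, limma). That rescaling moved the median log2 difference of all genes from -0.001 to 0.071. The call was also lost when only the 2 groups compared were fitted (adjusted p = 0.0808, limma). It was also lost without labelled WT sedentary replicate 1 (0.103) or replicate 2 (0.101), and without labelled strNrip1-/- sedentary replicate 1 (0.0819) or replicate 3 (0.0707), these being limma adjusted p values. The log2 difference stayed negative in all 19, and over them the limma adjusted p ran from 0.0248 to 0.103. The evidence for lower Myf6 in sedentary muscle thus lay close to the threshold.

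**Figure D2:**
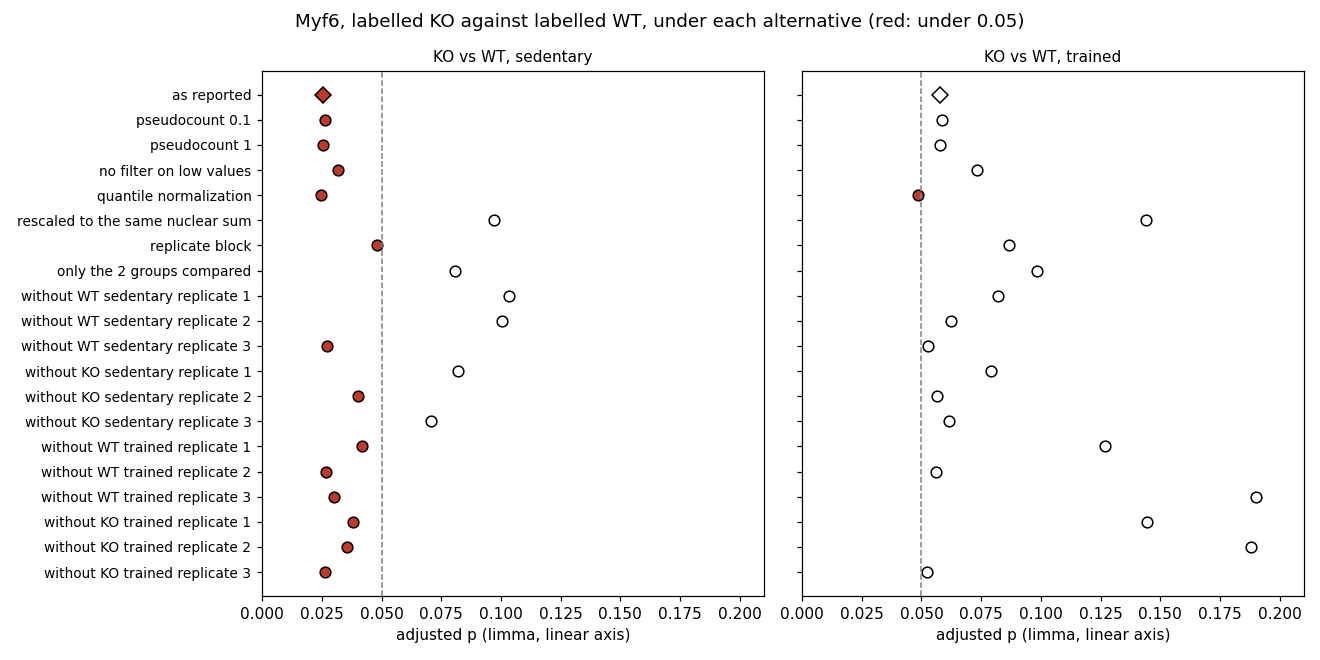
Benjamini-Hochberg adjusted p of Myf6 (x axis, linear, limma) between labelled strNrip1-/- (KO) and labelled WT, in sedentary (left) and trained (right) muscle, for the value as reported (diamond) and each alternative (circles, one per line of the y axis). Red marks values under 0.05, at the dashed line: the sedentary value of 0.0257 crosses it in 6 of 19 alternatives, and the trained value of 0.0577 falls under it in 1.

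Because Myf6 did not overlap by genotype in either training state, the mean of the sedentary and trained genotype differences was then computed in the same fit. This comparison was added after the values and the lost calls above had been seen, uses the same 12 libraries, and gives no independent support. Myf6 was at a log2 fold change of -0.40 (SE 0.0680, 95% confidence interval -0.55 to -0.25, limma adjusted p = 0.00328). It was the 1 member called of 8, against 8.8% of all genes tested. It passed in 18 of the 18 alternatives that could be run, with limma adjusted p from 0.00307 to 0.0154. These alternatives reuse the libraries whose values led to the comparison, so passing them gives no further support.

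Training left Myf6 at log2 differences of 0.12 within labelled WT (limma adjusted p = 0.792) and 0.23 within labelled strNrip1-/- (limma adjusted p = 0.377). The 3 trained libraries labelled strNrip1-/- all lay above the 3 sedentary ones, whereas in labelled WT the trained and sedentary libraries overlapped. Over the 12 libraries the genes whose log2 levels followed Myf6 most closely were Fbxo17 (Pearson r 0.919), Smarcd3 (0.918) and Rtkn (0.918), a description across libraries that share groups and depth. Of the summed level of Myf5, Myod1, Myog and Myf6, the share of Myf6 was 80.5% ± 2.57 under the WT sedentary label, 76.0% ± 1.52 under the strNrip1-/- sedentary label, 83.3% ± 1.29 under the WT trained label and 81.1% ± 3.15 under the strNrip1-/- trained label (SD, n = 3).

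Calls among markers of the fiber and other cells are to be read against 3.51% of all genes in sedentary and 5.98% in trained muscle. With so few markers, a count of 1 cannot be set apart from these shares. Of 10 muscle fiber markers 1 was called in each training state, Actn3, the fast-fiber alpha-actinin, which fell in both (log2 -0.90 and -0.75, limma adjusted p = 0.000252 and 0.000817), while 10 of the 10 differences were negative in sedentary and 9 in trained muscle. The summed level of these markers was 115591 to 128078 FPKM in labelled WT against 87141 to 114587 FPKM in labelled strNrip1-/- muscle among sedentary libraries, and 114655 to 140066 against 98956 to 103600 FPKM in trained libraries. The list includes other fast-fiber genes, such as Myh4, Tnnt3 and Tnni2, so its sum does not measure fibers of every type. Des went the other way in trained muscle, at 847 to 939 FPKM in labelled WT and 1029 to 1110 FPKM in labelled strNrip1-/- libraries. The summed level of 8 endothelial markers was 147 to 152 against 152 to 181 FPKM in sedentary libraries. In trained libraries it was 130 to 150 against 160 to 167 FPKM. Of the 8 differences, 8 were positive in sedentary and 7 in trained muscle. By limma 0 of the 8 were called in sedentary muscle and 1 in trained muscle. The 1 called was Tie1, an endothelial receptor, which rose (log2 0.42, limma adjusted p = 0.0125, lost in 3 of the 19 alternatives). Adipocyte markers summed to 172 to 215 against 234 to 353 FPKM in sedentary and 209 to 251 against 221 to 339 FPKM in trained libraries. By limma 0 of the 7 tested were called in either. Of the 7 differences, 7 were positive in each, with medians of 0.99 and 0.23 on the log2 scale. Fabp4 was the largest part of each sum, at 159 to 189 against 188 to 236 FPKM in sedentary libraries. The part of fibers and of these other cells in the Myf6 difference was not tested.

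**Figure D3:**
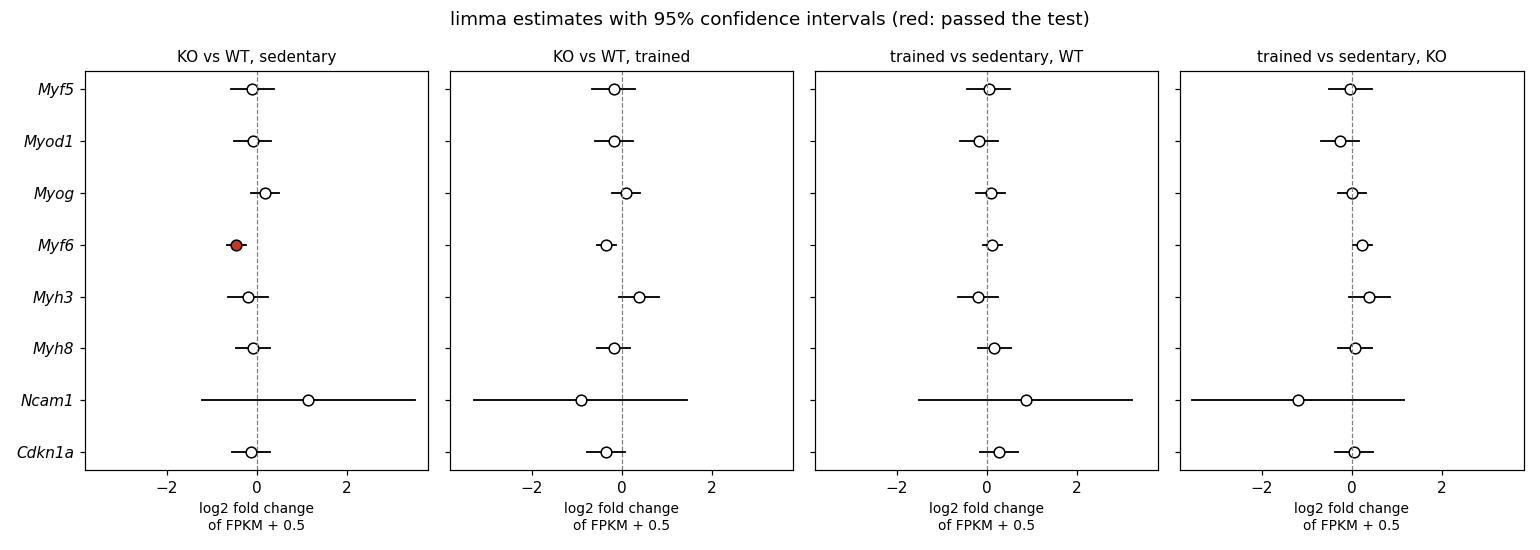
log2 fold changes (x axis, of FPKM + 0.5) of the 8 members tested (y axis) with 95% confidence intervals, for labelled strNrip1-/- (KO) against labelled WT in each training state and for trained against sedentary within each genotype. The filled red point is Myf6 in sedentary muscle at -0.46 and the intervals of Ncam1, such as -1.21 to 3.50 in sedentary muscle, are the widest.

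Pax7 (ENSMUSG00000028736, chromosome 4), the factor that defines satellite cells, was expressed at a low level. In sedentary muscle it was at 0.395, 0.547 and 0.486 FPKM in libraries labelled WT and at 0.358, 0.257 and 0.367 FPKM in those labelled strNrip1-/-, which were all lower. In trained muscle the values were 0.380, 0.209 and 0.613 FPKM against 0.372, 0.345 and 0.577 FPKM and overlapped. Without a filter on low values, the log2 differences of labelled strNrip1-/- from labelled WT were -0.24 in sedentary muscle (95% confidence interval -0.60 to 0.12, limma adjusted p = 0.596) and 0.06 in trained muscle (limma adjusted p = 0.906). Although the sedentary groups did not overlap, their difference did not pass this test.

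Myf5 (ENSMUSG00000000435, chromosome 10), which marks committed satellite cells, varied from 0.411 to 1.15 FPKM within labelled WT sedentary muscle alone. Its group means were 0.788 ± 0.368 FPKM there, 0.670 ± 0.124 FPKM under the strNrip1-/- sedentary label, 0.796 ± 0.141 FPKM under the WT trained label and 0.646 ± 0.162 FPKM under the strNrip1-/- trained label (SD, n = 3). The groups overlapped in each comparison. The log2 genotype differences were -0.10 (95% confidence interval -0.58 to 0.37) in sedentary and -0.18 (-0.66 to 0.29) in trained muscle, with limma adjusted p of 0.888 and 0.698. A library held only 18 to 42 fragments of Myf5, and the sedentary value of Myf6, -0.46, lay within the sedentary interval of Myf5.

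Myod1 (ENSMUSG00000009471, chromosome 7), the determination factor that is also kept by fast fibers, stood next to Myf6 in level. It was at 15.7, 13.1 and 14.3 FPKM under the WT sedentary label, 12.9, 13.1 and 14.2 FPKM under the strNrip1-/- sedentary label, 12.8, 10.1 and 15.4 FPKM under the WT trained label and 13.7, 7.82 and 12.5 FPKM under the strNrip1-/- trained label. All groups overlapped. The log2 genotype differences were -0.09 (95% confidence interval -0.51 to 0.32) in sedentary and -0.18 (-0.60 to 0.24) in trained muscle, with limma adjusted p of 0.882 and 0.648. Training gave -0.18 in labelled WT and -0.27 in labelled strNrip1-/- on the log2 scale, with limma adjusted p of 0.859 and 0.615.

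Myog (ENSMUSG00000026459, chromosome 1), whose promoter with E-boxes is shown above, had the least spread of the 10 genes, with a coefficient of variation of 13.9% over the 12 libraries. Its means were 1.69 ± 0.168 FPKM under the WT sedentary label, 1.98 ± 0.151 FPKM under the strNrip1-/- sedentary label, 1.84 ± 0.382 FPKM under the WT trained label and 1.98 ± 0.301 FPKM under the strNrip1-/- trained label (SD, n = 3). The log2 genotype differences were 0.18 (95% confidence interval -0.14 to 0.49) and 0.09 (-0.22 to 0.41), with limma adjusted p of 0.636 and 0.777. Both intervals hold 0, and they reach up to 0.41 or more. The ratio of Myod1 to Myog was 8.50 ± 0.374 in labelled WT sedentary and 6.82 ± 0.841 in labelled strNrip1-/- sedentary muscle, and 7.18 ± 2.36 and 5.88 ± 2.08 in trained muscle (SD, n = 3), a description with no test.

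Mymk (ENSMUSG00000009214, chromosome 2), the fusion factor, was near the limit of detection. It ranged from 0.0492 to 0.224 FPKM in labelled WT libraries, from 0.0856 to 0.128 FPKM under the strNrip1-/- sedentary label, and in labelled strNrip1-/- trained libraries it was at 0.0399 and 0.372 FPKM in 2 and listed at 0 in replicate 3. For its longest transcript, 3 fragments correspond to 0.0990 to 0.144 FPKM, and the values correspond to 0 to 9.91 fragments. No difference was detectable at this depth, and no fold is given.

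Myh3 (ENSMUSG00000020908) and Myh8 (ENSMUSG00000055775) lie 174832 bases apart on chromosome 11, in a cluster of myosin heavy chains whose sequences are closely alike, so the split of reads between them and their neighbours is uncertain. Myh3 was at 0.869, 1.48 and 1.39 FPKM under the WT sedentary label, 1.30, 0.903 and 0.845 FPKM under the strNrip1-/- sedentary label, 1.16, 0.885 and 0.994 FPKM under the WT trained label and 1.39, 2.01 and 1.11 FPKM under the strNrip1-/- trained label. The groups overlapped in each comparison. Myh3 had the largest interaction of the tested members other than Ncam1, at 0.58 on the log2 scale (95% confidence interval -0.05 to 1.21), and it did not pass the test (limma adjusted p = 0.655). The genotype differences were -0.20 in sedentary and 0.38 in trained muscle on the log2 scale, with limma adjusted p of 0.730 and 0.317.

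Myh8 was at 0.956, 1.27 and 1.097 FPKM under the WT trained label and at 0.886, 0.940 and 0.923 FPKM under the strNrip1-/- trained label, which were all lower. The difference of -0.18 on the log2 scale (95% confidence interval -0.55 to 0.19) did not pass the test (limma adjusted p = 0.608). In sedentary muscle the groups overlapped, at 0.941 ± 0.204 and 0.866 ± 0.248 FPKM (SD, n = 3; log2 -0.08, limma adjusted p = 0.881). Both developmental myosins thus had group means between 0.866 and 1.50 FPKM.

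Ncam1 (ENSMUSG00000039542, chromosome 9) was the most variable member, with a coefficient of variation of 99.5%. It was at 12.9, 1.61 and 1.96 FPKM under the WT sedentary label, 1.95, 25.3 and 11.3 FPKM under the strNrip1-/- sedentary label, 22.1, 6.83 and 2.01 FPKM under the WT trained label and 11.4, 1.82 and 1.76 FPKM under the strNrip1-/- trained label. Of the 12 libraries 6 lay between 1.61 and 2.01 FPKM and 6 between 6.83 and 25.3 FPKM, with both kinds in every group. The genotype differences of 1.14 in sedentary (95% confidence interval -1.21 to 3.50) and -0.91 in trained muscle (-3.27 to 1.45) on the log2 scale did not pass the test (limma adjusted p = 0.697 and 0.696). The gene has 7 annotated transcripts of 146 to 6564 nt, and since FPKM divides by length, its value depends on the transcripts to which fragments were assigned, whose part was not tested. Summed Schwann cell markers were at 106 FPKM in the library with the highest Ncam1 and at 156 FPKM in the library with the lowest.

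Cdkn1a (ENSMUSG00000023067, chromosome 17), which encodes p21, was at 11.0, 11.0 and 7.65 FPKM under the WT sedentary label, 10.1, 10.1 and 6.94 FPKM under the strNrip1-/- sedentary label, 9.70, 12.7 and 13.4 FPKM under the WT trained label and 9.75, 10.4 and 7.57 FPKM under the strNrip1-/- trained label. The groups overlapped in each comparison. The log2 genotype differences were -0.13 (95% confidence interval -0.55 to 0.29) in sedentary and -0.35 (-0.77 to 0.07) in trained muscle, with limma adjusted p of 0.835 and 0.331. The trained estimate was as large as that of Myf6 (-0.35), but its standard error was 0.191 against 0.0962.

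The wider pathways were described with lists of genes for each step, whose counts are to be read against the 3.51% of all genes called in sedentary and the 5.98% called in trained muscle. Of 18 satellite cell markers tested, 0 were called by limma in either genotype comparison. Their medians were 0.00 and 0.17 on the log2 scale in sedentary and trained muscle, against 0.00 and 0.01 over all genes. The list did not move in 1 direction: 9 differences were positive and 9 negative in sedentary muscle, and 11 and 7 in trained muscle. The 18 do not include Pax7, which was below the filter. Among 20 myogenic regulators and partners, 1 was called in each, Myf6 in sedentary and in trained muscle Mef2a, a partner of the myogenic factors, which fell (log2 -0.31, limma adjusted p = 0.0187). Of 13 fusion genes, Jam3, a junctional adhesion molecule, rose in sedentary muscle (log2 0.47, limma adjusted p = 0.0381) and Dysf, which encodes the membrane repair protein dysferlin, fell in trained muscle (log2 -0.40, limma adjusted p = 0.0403). The calls of Jam3, Dysf and Mef2a were lost in 12, 10 and 5 of the 19 alternatives, among them the omission of single libraries.

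Of 13 denervation response genes, 2 were called in sedentary and 1 in trained muscle, against 3.51% and 5.98% of all genes. The list did not move in 1 direction: 8 differences were positive and 5 negative in sedentary muscle, and 6 and 7 in trained muscle. Musk, the receptor kinase that organizes the postsynaptic membrane, rose in both, by 1.39 and 1.41 on the log2 scale (limma adjusted p = 0.00141 and 0.00126). Dach2, a transcriptional corepressor of the synaptic program, rose in sedentary muscle by 0.92 (limma adjusted p = 0.0138). It lay near the filter of 0.5 FPKM. Its group means were 0.209 FPKM in sedentary and 0.485 FPKM in trained muscle labelled WT, against 0.841 and 0.904 FPKM in muscle labelled strNrip1-/-. Dach2 thus passed the filter only through the groups in which it was high, and its call is no support for a difference. Among the genes around Cdkn1a, 1 of 14 p53 targets fell in each comparison, Tigar in sedentary (log2 -0.41, limma adjusted p = 0.0208) and Ccng1 in trained muscle (log2 -0.43, limma adjusted p = 0.00852). Of 6 cyclin-dependent kinase inhibitors, Cdkn2c rose in sedentary muscle (log2 0.63, limma adjusted p = 0.0219), while 0 were called in trained muscle. Of 9 cell cycle genes that passed the filter, 0 were called by limma in either. The calls of Dach2, Tigar, Cdkn2c and Ccng1 were lost in 4, 7, 5 and 1 of the 19 alternatives, and those of Musk in 0.

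Of 8 developmental sarcomere genes, 0 were called by limma in either genotype comparison. One of them, Actc1, the cardiac alpha-actin of developing muscle, was chosen for mention after its values were seen. It was at 116 to 143 FPKM in 5 of the 6 libraries labelled WT, at 1319 FPKM in labelled WT trained replicate 2, and at 425 to 795 FPKM in the libraries labelled strNrip1-/-. With all libraries its log2 differences were 1.97 in sedentary (limma adjusted p = 0.163) and 1.38 in trained muscle (limma adjusted p = 0.278). Without labelled WT trained replicate 2 they were 1.97 and 2.49 and both passed the test. In trained muscle that follows from leaving out the library that stood apart and is no evidence of a difference. The sedentary comparison does not hold that library, which entered it only through the spread shared by the 4 groups. Sedentary values were 116 to 143 FPKM in labelled WT and 425 to 695 FPKM in labelled strNrip1-/-. The sedentary difference passed in 2 of the 19 alternatives, over which the limma adjusted p ran from 0.00027 to 0.330. Myh3 and Myh8 in labelled WT trained replicate 2, at 0.885 and 1.27 FPKM, did not stand apart in the same way.

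**Figure D4:**
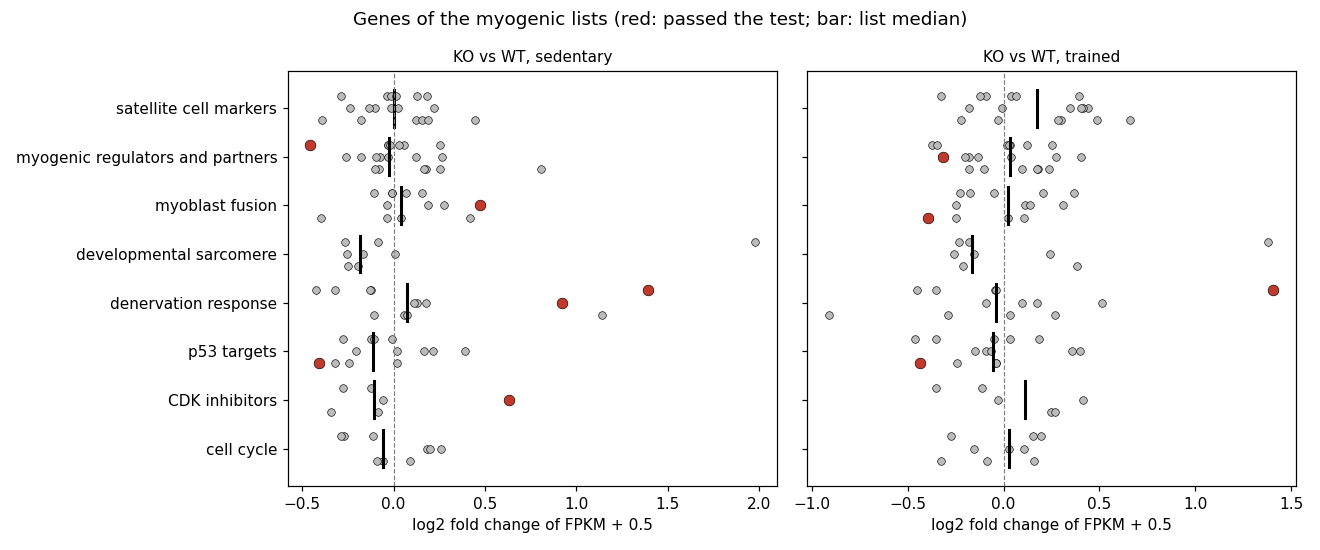
log2 fold changes (x axis, of FPKM + 0.5) between labelled strNrip1-/- (KO) and labelled WT for the genes of 8 lists (y axis), in sedentary (left) and trained (right) muscle. Each point is 1 gene that passed the filter, red where it was called. The black bar is the list median, and the medians lie between -0.18 and 0.17 and the called genes lie on both sides of 0.

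In each of these lists the numbers called within training comparisons and for the interaction were 0 by limma, as they were over all genes. Of the markers of other cells, 0 were called by limma in either genotype comparison for fibroblasts, macrophages, Schwann cells, tendon and blood. These counts are to be read against 3.51% and 5.98% of all genes.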

How the data were processed

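RNA-seq of EDL muscle from 12 samples of male mice was grouped by the sample labels into 4 groups of 3. Per the study's methods, libraries (NEBNext Ultra, paired-end) were quantified with Salmon 1.10.2 against mm10 and summed to genes with tximport. The authors deposited FPKM values for each gene and library, and beside them log2 fold changes and an adjusted p-value of 4 comparisons made with DESeq2 1.44.0, in 8 columns that were not used here. The annotation release and the function that gave the FPKM are not given in the sources used here.

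FPKM is not a count, so limma 3.58.1 (R 4.3.3; lmFit, contrasts.fit and eBayes with a mean-dependent prior) was fitted to log2(FPKM + 0.5) of all 12 libraries with 4 group means, two-sided, with Benjamini-Hochberg adjustment over the 12744 genes whose mean reached 0.5 FPKM. This scale understates the change of low genes. There were 5 planned comparisons, and 1 was added after the values were seen. The labels do not say that replicates are separate animals, so p-values measure the spread between these samples. The fragment scale was read from 1613 genes with a single transcript of at least 1500 nt, after taking 340 nt off their lengths. Of low values, 99.1% to 99.6% were whole fragments to within 0.15, where chance gives 30%. Limits from 3 fragments cover counting error only. Coordinates are from GENCODE M21 (GRCm38).

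The members and gene lists were chosen with earlier results of these data known. The text names all members, up to 4 called genes with the largest change per list and comparison, and the 3 genes most correlated with a called member. Alternatives were pseudocounts of 0.1 and 1, no filter, quantile normalization, rescaling to the same sum over nuclear genes, a replicate block, fits to 2 groups and the omission of each library.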

Additional observations from a re-analysis of the deposited data

How the results depend on the processing

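Of the 40 fold changes of members in the planned comparisons, 752 values were computed under the alternatives, of which 26 reversed in sign, 23 of them on leaving out 1 library, and 7 changed their side of the threshold, all of them for Myf6. The number of members called in sedentary muscle went from 1 to 0 with rescaling to the same nuclear sum and with only the 2 groups compared, and was 0 to 1 on leaving out single libraries. In trained muscle it went from 0 to 1 with quantile normalization. The causes were not tested. The comparison averaged over training states was added after these losses were seen. Its 1 call was kept under every alternative run, which gives no further support for it. No pairing of samples by replicate number was evident (same-number correlations -0.105 to 0.241, median -0.0095, against -0.251 to 0.196 for other numbers). With 3 libraries per group this check cannot exclude pairing. The replicate block gave Myf6 log2 -0.46 in sedentary muscle with a limma adjusted p of 0.0480, keeping every member count.

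Among reversals that left out no library, the training difference under the strNrip1-/- label became 0.00037 for Myog with a pseudocount of 1, and 0.052 for Myog and 0.058 for Myf5 with quantile normalization. Each log2 value that reversed on leaving out 1 library failed the test, and their ranges were as follows. By genotype in sedentary muscle they were -0.33 to 0.094 for Myf5, -0.21 to 0.073 for Myh8 and -0.29 to 0.042 for Cdkn1a, and in trained muscle -0.33 to 0.053 for Myod1. By training under the WT label they were -0.19 to 0.24 for Myf5 and -0.048 to 0.17 for Myog. By training under the strNrip1-/- label they were -0.12 to 0.089 for Myf5, -0.059 to 0.10 for Myog, -0.088 to 0.17 for Myh8 and -0.13 to 0.17 for Cdkn1a. For the interaction they were -0.28 to 0.15 for Myf5, -0.24 to 0.15 for Myod1, -0.17 to 0.047 for Myog and -0.25 to 0.029 for Myh8. Averaged over training states, Ncam1 ran from -0.28 to 0.59.

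Over all genes, calls by genotype went from 447 to 166 in sedentary and from 762 to 445 in trained muscle with only the 2 groups compared, and ran from 163 to 478 and from 315 to 874 on leaving out 1 library. Training calls under the WT label went from 0 to at most 30. Low fragment numbers limit Mymk (at most 9.91 fragments of its longest transcript per library), Myf5 (18.1 to 41.8), Pax7 (29.7 to 98.4) and Myog (37.0 to 70.5).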
